A study of Saccharomyces cerevisiae and Saccharomyces pastorianus with 78 samples.

Results

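The comparison set 3 libraries of *S. pastorianus* Weihenstephan 34/70 taken 20 h after the addition of 7% EtOH against 3 control libraries taken just before it. These are 6 of the 39 libraries of this yeast and of 78 in the whole series, chosen by their labels, and 10688 of the 11956 rows of the count table were tested. The other 1268 rows fell below the filter on low counts, among them 1170 that hold no count in any library, and all but 2 of the tested rows are coding genes. Both groups carried the wild-type genotype and were grown in YPD medium with 2% glucose at 25 °C, starting from an OD595 of about 0.1. The controls came out of the aliquot that then received the alcohol. No untreated culture was sampled at 20 h, so 20 h of exposure and 20 h of further culture cannot be told apart. The series also holds SDS, a detergent, at 0.01% and earlier times of both stresses, with 3 biological replicates per group.

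*S. pastorianus* is the lager brewing yeast, a hybrid of *S. cerevisiae* and *S. eubayanus*, and many of its genes are present in a version from each parent. Yeast makes ethanol by fermentation and is also stressed by it: ethanol enters the plasma membrane, makes it more fluid and leakier to protons, and unsettles protein folding. In *S. cerevisiae* the known responses include chaperone and trehalose synthesis and changes in membrane lipids and the cell wall. The deposited annotation gives each gene an identifier and a place on a scaffold, and no gene name, parental genome or sequence, so the pathways named here could not be followed gene by gene. For the same reason the strain could not be checked against marker genes. The scaffold is named below by the letters that open the identifiers on it, as in scaffold 0D for SCPA_0D04200, and positions are those of the annotation, whose assembly name is not given in the sources used here.

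Of 10688 genes tested in edgeR, 611 rose and 269 fell at 20 h of EtOH (Benjamini-Hochberg adjusted p under 0.05 and a log2 change of at least 1). Called genes were 8.23% of those tested, with 5.72% higher and 2.52% lower. The rises were also the larger changes, with 30 genes at a log2 change of 4 or more and 21 between 3 and 4, against 0 and 3 genes that fell by as much. Most called changes were smaller, with 450 of the risen genes and 243 of the fallen genes between 1 and 2. In such bulk samples, expression in fewer cells and less RNA per cell cannot be told apart. The median log2 change over all tested genes was 0.00, and 5% of genes lay below -0.75 and 5% above 1.08.

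The 611 risen genes took 8.61%, 7.98% and 8.02% of all counts in the 3 EtOH 20 h libraries, against 2.60%, 2.56% and 2.49% in the 3 controls. The 269 fallen genes took 0.939%, 0.912% and 0.984% in the EtOH 20 h libraries, against 2.53%, 2.44% and 2.33% in the controls. These shares describe genes chosen by the same comparison and were not tested. In the median risen gene the level was 34.9 CPM (counts scaled to TMM-adjusted library size) in EtOH 20 h and 11.6 CPM in the control. In the median fallen gene it was 10.6 CPM in EtOH 20 h and 29.4 CPM in the control. The 3 EtOH 20 h values did not overlap the 3 control values in 864 of the 880 called genes, a count that the call itself nearly fixes, and in 6858 of all 10688 tested genes (64.2%).

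Without the fold limit, 6028 genes (56.4%) passed the adjusted p, 3140 higher and 2888 lower, so small shifts were spread over more than the called genes. Just below the fold limit, 107 genes that passed the adjusted p had log2 changes of 0.9 to 1, and 77 had -0.9 to -1. The EtOH 20 h libraries held 28697440 to 32625859 counts and the controls 31387398 to 32955528, and a count of 0 leaves room for a level of at most 0.105 CPM in the smallest EtOH 20 h library. Replicates spread more at EtOH 20 h than in the control, with a median SD of log2 CPM of 0.11 and 0.06 over 7325 genes whose mean over the 6 libraries was 20 CPM or more.

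**Figure D1:**
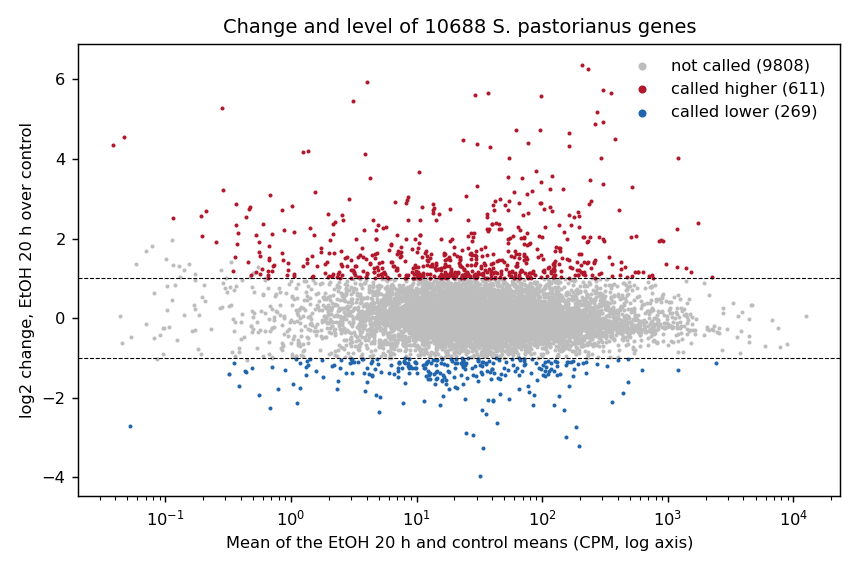
Log2 change of each tested gene at EtOH 20 h over control (vertical axis) against its level, the mean of the EtOH 20 h and control means in CPM (horizontal log axis). Red points are the 611 genes called higher, blue points the 269 called lower and grey points the genes not called, and dashed lines mark a log2 change of 1 in either direction.

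The genes named had the largest rises and falls of those called, averaged 20 CPM or more over the 6 libraries and showed no overlap between the groups, conditions that 326 risen and 138 fallen genes met. SCPA_0NG00100 lies on the minus strand of scaffold 0NG, from 165 to 338, as a coding stretch of 174 bases, and it is the last feature annotated on that scaffold, whose length the annotation does not give. Its level was 463, 511 and 258 CPM in EtOH 20 h, against 5.61, 4.98 and 4.24 CPM in the control. All 3 EtOH values lay far above the controls, and the lowest of them was replicate 3. The log2 change was 6.37 ± 0.22 (SE, n = 3 each, edgeR adjusted p = 1.37e-19). Here and for the other named genes, SE and p rest on a spread estimated over all 39 libraries. Whether so short a stretch is part of a longer gene cannot be read from these files.

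SCPA_0D04200, on the plus strand of scaffold 0D from 831974 to 833728, has an uninterrupted coding length of 1755 bases. It had 476, 487 and 415 CPM in EtOH 20 h, against 6.39, 6.28 and 5.32 CPM in the control. The groups were far apart and each was tight, and the log2 change was 6.26 ± 0.33 (SE, edgeR adjusted p = 9.22e-16).

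Among the falls, SCPA_0AP01100, on the plus strand of scaffold 0AP from 202622 to 203578, has a coding length of 957 bases. It had 4.51, 3.95 and 3.17 CPM in EtOH 20 h, against 59.2, 61.3 and 59.5 CPM in the control, a log2 change of -3.96 ± 0.22 (SE, edgeR adjusted p = 3.9e-15). SCPA_0L00240, on the minus strand of scaffold 0L from 36730 to 38889, has a coding length of 2160 bases. It had 7.52, 6.53 and 5.03 CPM in EtOH 20 h, against 60.6, 61.7 and 61.9 CPM in the control, a log2 change of -3.28 ± 0.17 (SE, edgeR adjusted p = 3.87e-16). Both started from nearly the same control level, and no EtOH value of either came near its controls.

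These 4 genes did not all reach their 20 h levels along the same course. SCPA_0NG00100 stayed near its control mean of 4.94 CPM up to 4 h of EtOH (4.33 ± 0.337 CPM, SD, n = 3), then reached 60.7 ± 18.7 CPM by 8 h, while the 20 h mean was 411 ± 135 CPM. SCPA_0D04200 was already at 59.0 ± 11.7 CPM at 0.5 h and at 308 ± 52.5 CPM at 8 h. SCPA_0AP01100 averaged 25.4 ± 2.60 CPM after 0.5 h and 6.69 ± 1.55 CPM after 8 h of EtOH, and SCPA_0L00240 39.4 ± 3.57 and 9.52 ± 2.40 CPM at these times. From 8 to 20 h only SCPA_0NG00100 was called among the 4, with a log2 change of 2.76 ± 0.18 (edgeR adjusted p = 8.5e-12). The other changes over this interval were 0.57 ± 0.26 for SCPA_0D04200 (edgeR adjusted p = 0.0912), -0.80 ± 0.24 for SCPA_0AP01100 (0.0112) and -0.59 ± 0.17 for SCPA_0L00240 (0.00961).

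Set against SDS at the same 20 h, all 4 genes passed the adjusted p and 3 of the 4 also passed the fold limit. SCPA_0NG00100 had a log2 difference of 6.88 ± 0.23 (SE, edgeR adjusted p = 4.06e-20) and SCPA_0D04200 of 6.30 ± 0.33 (4.88e-16). In SDS at 20 h their means were 3.50 ± 0.349 and 5.84 ± 0.304 CPM, beside control means of 4.94 and 6.00 CPM. SCPA_0D04200 had nonetheless stood at 79.4 ± 10.4 CPM at 4 h of SDS. SCPA_0AP01100 was at 98.9 ± 27.6 CPM at 20 h of SDS and at 59.2 to 61.3 CPM in the control, and its log2 difference was -4.68 ± 0.23 (6.58e-17). SCPA_0L00240 was low in both stresses, at 6.36 ± 1.25 CPM in EtOH 20 h and 11.7 ± 1.90 CPM in SDS 20 h, and its difference of -0.89 ± 0.17 lay under the fold limit (5.46e-05).

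**Figure D2:**
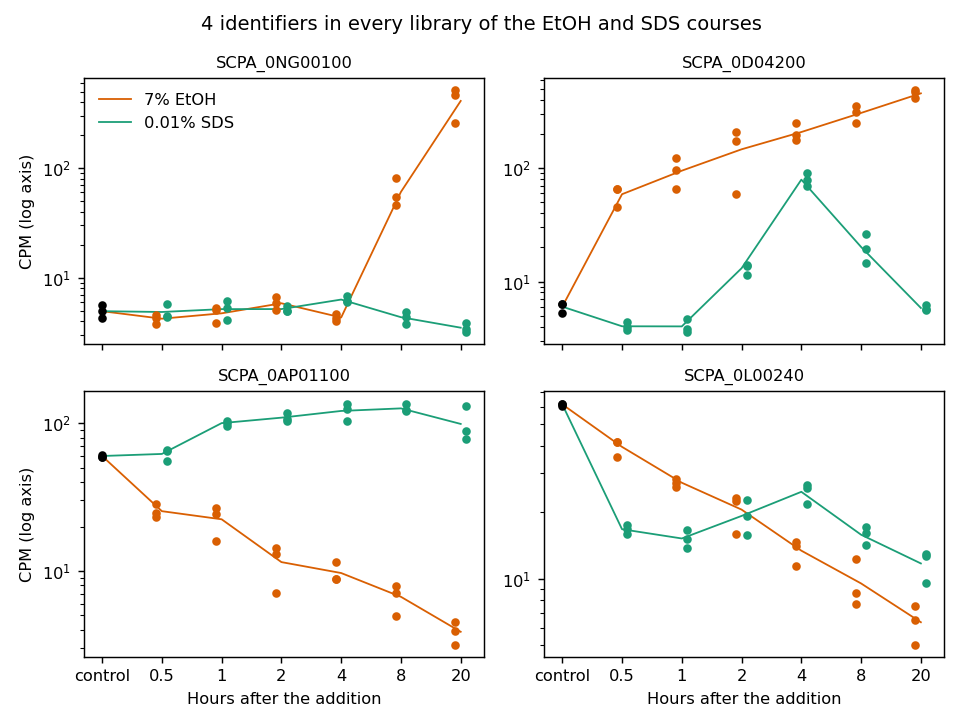
Level of the 4 named genes in CPM (log axis) in each library, against hours after the addition of 7% EtOH (orange) or 0.01% SDS (green), with the shared controls in black at the left. Points are single libraries and lines join the means of 3, and SCPA_0NG00100 leaves its control level only at 8 h of EtOH.

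The next comparison asked which genes set EtOH apart from SDS at 20 h, with the time in culture held equal. Of 10688 genes, 464 were higher and 408 lower in EtOH than in SDS, 8.16% of those tested (4.34% higher and 3.82% lower), and 54.7% passed the adjusted p alone. The genes higher in EtOH had a median level of 39.9 CPM in EtOH 20 h, 12.4 CPM in SDS 20 h and 12.7 CPM in the control. The genes lower in EtOH had medians of 20.5 CPM in EtOH 20 h, 60.2 CPM in SDS 20 h and 36.9 CPM in the control, which lay between them. Both sets of medians are over genes chosen by their difference between EtOH and SDS, and they were not tested. The largest differences were 6.88 and -5.01 on the log2 scale.

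Between 8 and 20 h of EtOH fewer genes moved, with 34 higher and 145 lower at 20 h, 1.67% of those tested (0.318% higher and 1.36% lower), while 29.3% passed the adjusted p alone. The 145 lower genes had a median of 3.37 CPM at 20 h, 8.20 CPM at 8 h and 2.89 CPM in the control. Their median log2 difference from the control was 0.21 at 20 h and 1.75 at 8 h. The 34 higher genes had medians of 137 CPM at 20 h, 60.6 CPM at 8 h and 67.9 CPM in the control, and median differences from the control of 0.45 at 20 h and -0.98 at 8 h. All these medians are over genes chosen by their difference between 8 and 20 h, and they were not tested. The count of 34 was 59 without EtOH 20 h replicate 1 and 19 without replicate 3.

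Followed back through the EtOH course, the 611 risen genes had median log2 changes from the control of 0.62, 0.82, 1.17, 1.58, 1.66 and 1.41 over the 6 times, in order from 0.5 h to 20 h. The 269 fallen genes had medians of -0.38, -0.39, -0.35, -0.73, -1.03 and -1.27 at these times. All these values share the same 3 controls, and the value at 20 h is fixed by how the genes were chosen, so they were not tested. The mean level was highest at 20 h in 149 risen genes (24.4%), at 8 h in 198 (32.4%), at 4 h in 103, at 2 h in 117, and at 0.5 or 1 h in 10 and 34. It was lowest at 20 h in 185 fallen genes (68.8%) and at 8 h in 42. In the SDS course the same risen genes had medians of 0.32, 0.38, 0.64, 0.72, 0.31 and 0.46, and the fallen genes of -0.26, -0.37, -0.15, -0.04, -0.29 and -0.25. The controls came from the aliquot that received EtOH, so the SDS values set a different aliquot against them.

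**Figure D3:**
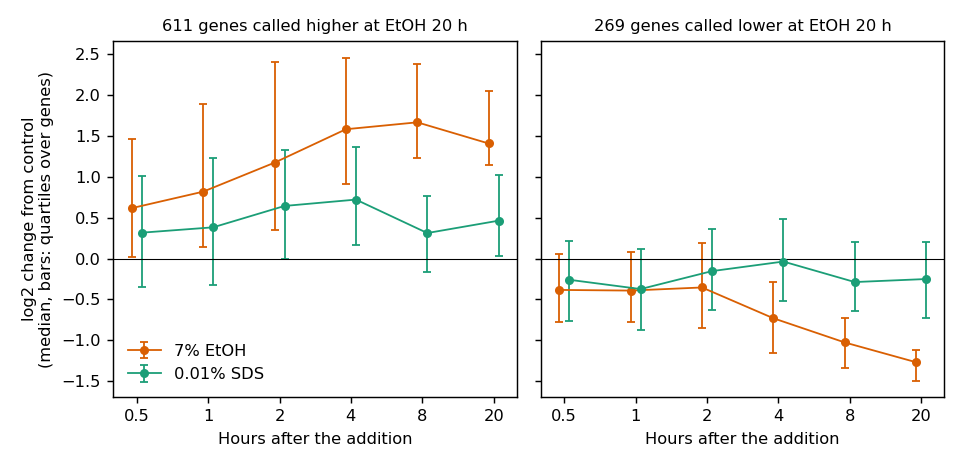
Median log2 change from the control over the 611 genes called higher (left) and the 269 called lower (right) at EtOH 20 h, against hours after the addition of EtOH (orange) or SDS (green). Bars span the quartiles over genes, and the EtOH medians of the risen genes peak at 1.66 at 8 h while those of the fallen genes are lowest, at -1.27, at 20 h.

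The most abundant transcripts were compared by their share of each library. The 10 highest genes of each library held 6.15%, 5.76% and 6.63% of all counts in EtOH 20 h, against 7.35%, 7.41% and 7.44% in the control. The share was lower in all 3 EtOH libraries, by 1.22 percentage points on average. The two-sided exact permutation test gave p = 0.1, the smallest that 3 against 3 libraries allow. With the single highest gene in place of 10, the share was 1.26% in EtOH 20 h and 1.21% in the control, a difference of 0.0485 points in the other direction (exact permutation p = 0.4). Of the 10 genes with the highest mean level in each group, 7 were shared, and 0 of the 10 in EtOH 20 h were called in either direction, beside 8.23% of all genes. Of the highest 100, 76 were shared, 12 of the 100 in EtOH 20 h were called higher and 2 of the 100 in the control were called lower, beside 5.72% and 2.52% of all genes. Ranking by the level in one group favours genes that are higher there.

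The genes were then set out by level and length, beside 8.23% called over all genes. In the tercile of lowest mean level over the 39 libraries, 313 of 3563 rose and 128 fell (12.4% called, median log2 change 0.11). In the highest tercile 151 of 3563 rose and 64 fell (6.03% called, median -0.06). By coding length, 224 rose and 82 fell of 3568 genes of up to 894 bases (8.58% called, median 0.06). In the middle tercile, of 897 to 1632 bases, 238 of 3567 rose and 97 fell (9.39% called, median 0.01), the highest share by length. Of 3551 genes of at least 1635 bases, 149 rose and 89 fell (6.70% called, median -0.05). The length terciles also differed in level, with medians of 21.2, 35.3 and 55.7 CPM from short to long, and these differences were not tested.

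In the annotation 153 coding genes have a gap in the coding region, as an intron leaves, and all 153 were tested. Of these 4 rose and 1 fell, 3.27% against 8.23% over all genes, with a median log2 change of -0.09. The difference rests on few called genes and was not tested. Nor were the genes matched by level, with a median of 41.8 CPM against 37.5 CPM over all tested genes. In *S. cerevisiae* a large part of the genes with introns encode ribosomal proteins. Whether these 153 do cannot be read from the identifiers.

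Position was read as distance to the nearer scaffold end, either the start of the positions or the last annotated feature. On scaffolds of at least 100 kb, 73 of 748 genes within 20 kb of an end rose and 29 fell (9.76% and 3.88%), against 507 and 218 of 9459 genes further in (5.36% and 2.30%). Within 10 kb of an end, 44 of 383 rose and 17 fell (11.5% and 4.44%). The median log2 change was 0.03 near the ends and 0.00 further in. Yeast chromosome ends are known for gene families that vary between strains and for genes of sugar and cell wall functions, but a scaffold end need not be a chromosome end. The genes near the ends had a lower median level, 31.7 against 38.3 CPM further in, and the calls were also set out by level. In the lowest tercile 19.8% of 308 genes near the ends were called, against 11.5% of 3068 further in. In the middle tercile the shares were 9.92% of 242 near the ends and 5.67% of 3175 further in, and in the highest 8.59% of 198 and 5.94% of 3216. On scaffolds under 100 kb, 31 of 481 genes rose and 22 fell (11.0%). The difference between ends and interior was not tested, since neighbouring genes are not independent.

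**Figure D4:**
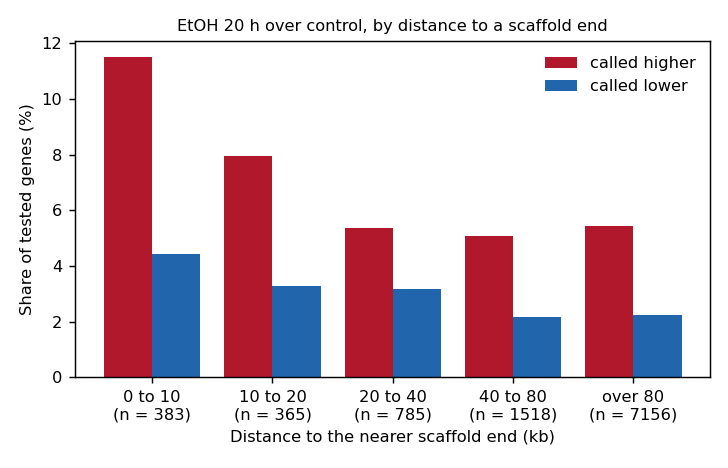
Share of tested genes called higher (red) and lower (blue) at EtOH 20 h over control, by distance to the nearer scaffold end in kb on scaffolds of at least 100 kb, with the number of genes under each pair of bars. The share called higher is 11.5% within 10 kb and 5.42% beyond 80 kb.

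Called genes were also counted by their neighbours. Of 601 risen genes with a tested neighbour on their scaffold, 117 (19.5%) had an adjacent gene that also rose, as did 1140 of all 10610 tested genes with such a neighbour (10.7%). Of 262 fallen genes, 33 (12.6%) had an adjacent gene that fell, as did 501 of the 10610 (4.72%). These shares were not tested. The longest runs held 3 genes, 7 of them of risen and 3 of fallen genes. Among them 2 lay within 20 kb of a scaffold end, both of risen genes. One opened scaffold 0I, from 149 to 6202, with log2 changes of 1.08 to 2.96. The other, on scaffold 0AG, from 4584 to 11917, had changes of 1.07 to 1.75. Strandedness is not given in the sources used here, and the part of reads shared between adjacent genes in these runs was not tested.

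Across scaffolds the response was spread widely. On the 40 scaffolds with at least 50 tested genes, 2.34% to 13.6% of genes were called (median 7.98%), and more genes rose than fell on 36 of them. Scaffold 0AG had the highest share, with 22 of 199 genes risen and 5 fallen, and scaffold 0NT the lowest, with 4 of 171 risen and 0 fallen. The median log2 change per scaffold lay between -0.12 and 0.12.

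The hybrid genome allowed a further question, whether genes in matching places on different scaffolds responded alike. Pairs were formed from the annotation alone, from stretches in which genes of equal coding length follow each other in the same order on 2 scaffolds, with the genes between them paired where their lengths differed by at most 5%. The pairing was added after the data had been seen. It gave 52 stretches of 10 to 183 pairs, and in 3307 pairs, which hold 6614 genes (61.9% of those tested), both partners were tested. Which parent a partner came from, and how similar its sequence is, cannot be read from these files, and how reads common to both partners were counted was not tested. Of the paired genes 7.02% were called (323 higher and 141 lower), and of the 4074 unpaired ones 10.2% (288 higher and 128 lower). Paired and unpaired genes were not matched by level or position, with which the share called also varied, and the difference was not tested.

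Across the 3307 pairs Pearson's r between the log2 changes of the partners was 0.61 and Spearman's rho 0.61, a description over genes that come from the same 6 libraries. In 76 pairs both partners rose and in 25 both fell. In 169 pairs only 1 partner was called higher, in 89 only 1 was called lower, and in 2 pairs 1 rose while the other fell. Since a partner can miss the limit by little, the difference between partners was tested in itself, with limma on the log2 ratio of the partners (each as CPM plus 0.5, which understates changes of low genes) over all pairs. The partners differed in 149 of 3307 pairs (4.51%, adjusted p under 0.05 and a log2 difference of at least 1). Among the 169 pairs with 1 riser 59 differed, and among the 89 with 1 faller 25 did. Another 16 differed among the pairs in which both rose, 2 where both fell, and 45 of the 2946 where neither was called. Without the limit on size, 54.1% of pairs passed.

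Examples of pairs with different responses were chosen after their values were seen. The differences between partners given here are those of the limma test, with 0.5 CPM added to each level. In a pair of 1458 coding bases each, the gene on scaffold 0O from 15132 to 16589 had 447, 453 and 749 CPM in EtOH 20 h, against 42.7, 33.6 and 25.3 CPM in the control. Its partner on scaffold 0NC from 16572 to 18029 had 755, 976 and 1638 CPM in EtOH 20 h, against 1101, 979 and 744 CPM in the control. The first rose in every library while the values of the second overlapped between groups, and the log2 changes differed by 3.79 ± 0.13 (SE, n = 3 each, limma adjusted p = 3.27e-22). At 20 h of EtOH the first thus held a level of 550 ± 173 CPM beside 1123 ± 459.8 CPM of its partner, and in the control 33.8 ± 8.72 beside 941 ± 182 CPM.

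In a pair that fell on one side, the gene on scaffold 0X from 933091 to 936366 had 52.5, 30.7 and 21.9 CPM in EtOH 20 h, against 441, 250.4 and 134 CPM in the control. Its partner on scaffold 0A from 330457 to 333726 had 553, 401 and 244 CPM in EtOH 20 h, against 636, 412 and 291 CPM in the control. In both partners and both groups replicate 1 was highest and replicate 3 lowest, and the log2 changes still differed by 2.72 ± 0.12 (limma adjusted p = 5.32e-19).

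In the 2 pairs that went opposite ways, levels were lower. The gene on scaffold 0NB from 256851 to 257612 had 32.2, 23.4 and 15.9 CPM in EtOH 20 h, against 3.76, 3.56 and 2.42 CPM in the control. Its partner on scaffold 0AB from 246992 to 247759 had 1.34 to 1.75 CPM in EtOH 20 h, against 4.86, 3.71 and 3.43 CPM in the control. From like control levels these partners parted by a log2 difference of 3.80 ± 0.24 (limma adjusted p = 3.68e-15). Their edgeR log2 changes, without the added 0.5 CPM, were 2.87 and -1.39. The second pair has short coding stretches of 114 bases. The one on scaffold 0S from 290653 to 290766 had 4.19, 4.90 and 9.35 CPM in EtOH 20 h, against 0.157, 0.0928 and 0.163 CPM in the control, levels close to the floor of 3 counts. Its partner lies on scaffold 0B from 253918 to 254031. It had 9.34, 23.8 and 30.0 CPM in EtOH 20 h, against 33.0, 40.8 and 61.5 CPM in the control. The log2 difference between these partners was 4.49 ± 0.32 (limma adjusted p = 7.19e-14). The added 0.5 CPM exceeds the control levels on scaffold 0S, so this value understates the difference. The edgeR log2 changes, without that addition, were 5.45 and -1.09.

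**Figure D5:**
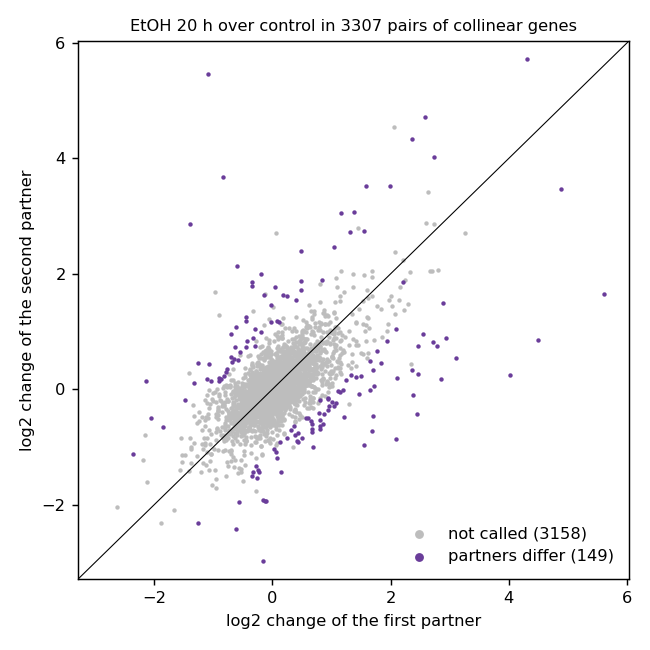
Log2 change at EtOH 20 h over control of both partners in 3307 pairs of genes that hold matching places on different scaffolds, with the line of equal change. Purple points are the 149 pairs whose partners differ by the limma test, and the order of partners within a pair carries no meaning.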

How the data were processed

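Poly(A) RNA of yeast was sequenced. The submitters' processing notes list STAR 2.7.8, featureCounts 2.0.1, Trimmomatic 0.39 and FastQC 0.11.9. The authors deposited whole-number counts per gene, not normalized. The sources used here do not give the genome used for *S. pastorianus*, strandedness or the handling of multimapped reads. The deposited annotation gives feature positions. It lists 11262 identifiers on 201 scaffolds. Another 694 rows of the count table, with exon suffixes, hold 0 counts. Scaffold ends were set at the start of the scaffold's positions and at its last annotated feature. By this measure the last feature always lies at an end.

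The 39 libraries held 23992590 to 47297347 counts, and floors (3 counts) cover counting error only. edgeR 4.0.16 in R 4.3.3 was run with filterByExpr, TMM scaling and quasi-likelihood tests of 13 groups (26 residual degrees of freedom), with 3 comparisons that share the EtOH 20 h libraries. SE was computed from the log2 change and the F statistic (absolute change divided by the root of F). Pairs of genes needed at least 8 genes of equal coding length with at most 8 skipped between them. Genes in between were paired in order within 5% of length. Ratios (pseudocount 0.5 CPM) were tested with limma 3.58.1. Permutation tests used scipy 1.17.1. Steps were tested on simulated data. Alternatives were DESeq2 1.42.0, RLE factors, no filter, the 6 compared libraries alone, a replicate block, no fold limit and leaving out each library. For pairs, a pseudocount of 2 CPM and a limit to equal coding length were also run.

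The comparison, groups and lists were chosen with earlier results of these data known. The 2 largest rises and 2 largest falls at a mean of at least 20 CPM without overlap were named. Biological replicates are as labelled.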

Additional observations from a re-analysis of the deposited data

How the results depend on the processing

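Dropping the fold limit changed the counts most. It gave 3140 higher and 2888 lower genes against the control, 2951 and 2892 against SDS 20 h, and 1480 and 1649 against EtOH 8 h. The share of counts in the most abundant genes was lower by 1.22 percentage points with 10 genes and by 1.47 with 100 genes, and with the single top gene the difference was 0.0485 in the other direction (exact permutation p = 0.4). Limited to pairs of equal coding length, 80 pairs differed (4.80%), since fewer pairs were tested. With a pseudocount of 2 CPM in place of 0.5 CPM, 109 pairs differed (3.30%), against 149 (4.51%) in the main run.

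Leaving out single libraries gave 577 to 634 higher and 247 to 297 lower genes against the control, 435 to 505 and 362 to 478 against SDS 20 h, 19 to 59 and 118 to 197 against EtOH 8 h, a share difference of -1.45 to -1.01 points, and 139 to 156 differing pairs. The named genes stayed called with the same sign against the control in every alternative run. With the 6 compared libraries alone their edgeR adjusted p-values were much larger than in the main run. They were 1.16e-05 for SCPA_0NG00100, 5.26e-07 for SCPA_0D04200, 1.75e-06 for SCPA_0AP01100 and 6.30e-06 for SCPA_0L00240. The fallen genes with interrupted coding regions numbered 2 in place of 1 without EtOH 20 h replicate 2.

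Replicate numbers were not taken as pairs. Deviations of same-numbered EtOH 20 h and control libraries correlated at 0.17, 0.02 and 0.10. EtOH 20 h replicates 1 and 3 correlated best with the control of their own number, and replicate 2 with control replicate 3 (0.04). Whether same-numbered libraries came from the same culture cannot be told from these values. A replicate block gave 607 higher and 270 lower genes against the control. DESeq2 gave 579 and 288. Depth limits statements on genes near the floor: 2 of the 611 risen genes had no count in the 3 controls.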
